A study of Mus musculus with 18 samples.

Results

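The Serpina genes measured here were 10 members of clade A of the serpins, the family of plasma protease inhibitors that hepatocytes secrete. They were chosen by gene name: Serpina1a, Serpina1b, Serpina1c, Serpina1d and Serpina1e, Serpina3k, Serpina3m and Serpina3n, Serpina6, and Serpina10. All 10 were found in the table of 54532 genes, and all 10 were among the 10216 genes with a mean of at least 1 FPKM over all mice, which were the genes tested. FPKM are fragments per kilobase of gene, scaled to the size of the library, so levels of different genes can be set side by side. Liver mRNA of 18 C57BL/6 mice was sequenced, male C57BL/6J of 6 weeks at the start by the study's methods. The 6 normal chow mice (NC) ate a standard diet, the 6 HFD mice ate a high-fat diet for 14 weeks and then stayed on it with saline, and the 6 SZ-A mice ate the same diet with SZ-A, the alkaloids of mulberry twig (Ramulus Mori), in place of saline. The deposited design gives 8 weeks of SZ-A and the methods give 6, the dose and route of the sequenced mice are not given in the sources used here, and mice were fasted overnight before death. For NC6 the diet label (high-fat) goes against the title, by which it was kept in NC, and the fits of HFD or SZ-A against NC were also run without it.

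Serpins inhibit proteases by offering a loop that the protease cuts, after which the serpin changes shape and traps the enzyme. The Serpina1 genes encode α1-antitrypsin, in humans the main plasma inhibitor of neutrophil elastase, and the mouse has several copies where humans have a single gene. Which proteases each mouse copy inhibits was not measured here. The Serpina3 genes are the mouse relatives of α1-antichymotrypsin, Serpina6 encodes corticosteroid-binding globulin, a carrier that no longer inhibits proteases, and Serpina10 encodes the protein Z-dependent inhibitor of coagulation factors.

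All 10 genes lie in a cluster on chromosome 12 (GRCm38). On the minus strand are Serpina10 (chr12:103614786-103631444), Serpina6 (chr12:103646630-103657212), Serpina1b (chr12:103728156-103830373), Serpina1d (chr12:103763594-103773592), Serpina1a (chr12:103853589-103863562), Serpina1c (chr12:103894926-103904887) and Serpina1e (chr12:103946931-103958975). On the plus strand are Serpina3k (chr12:104338486-104346144), Serpina3m (chr12:104338486-104394257) and Serpina3n (chr12:104406729-104414329). The listed span of Serpina1b covers that of Serpina1d, but they share no exon bases, while Serpina3k and Serpina3m share 60 exon bases and Serpina1c shares 429 with B430119L08Rik on the opposite strand. The coding sequences of the Serpina1 copies, read from the GENCODE M21 transcripts, were 96.3% to 98.5% identical to each other. Those of Serpina3k and Serpina3m were 92.5% identical, Serpina3n was 83.7% identical to Serpina3k, and Serpina6 and Serpina10 were 60.4% identical.

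The Serpina1 copies differed from each other at 86 of 1242 coding bases, and the 60 coding bases with the most differences held 18 of these. This stretch, coding bases 1102 to 1161 of the part that all 5 copies share, lies in the last exon and codes for the region of the reactive centre loop, the bait for the protease. It is shown because the copies, similar elsewhere, differ most there, and capitals mark the positions at which the 5 copies are not all alike. The lines give it 5′ to 3′ on the minus strand of GRCm38, for Serpina1a at chr12:103853756-103853815, Serpina1b at chr12:103728323-103728382, Serpina1c at chr12:103895093-103895152, Serpina1d at chr12:103763761-103763820 and Serpina1e at chr12:103947099-103947158.
Serpina1a: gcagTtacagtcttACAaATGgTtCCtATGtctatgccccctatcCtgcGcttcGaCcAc
Serpina1b: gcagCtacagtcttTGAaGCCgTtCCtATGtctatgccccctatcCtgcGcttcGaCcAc
Serpina1c: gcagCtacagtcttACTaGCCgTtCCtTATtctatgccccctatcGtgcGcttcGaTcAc
Serpina1d: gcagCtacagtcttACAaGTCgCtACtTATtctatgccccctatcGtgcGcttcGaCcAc
Serpina1e: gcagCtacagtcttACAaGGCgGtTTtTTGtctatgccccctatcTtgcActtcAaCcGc
Within these 60 bases Serpina1e differed from the other copies at 10 to 12 positions, whereas Serpina1c and Serpina1d, the pair with the fewest differences, differed at 5.

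The RefSeq promoter table (GRCm38.p6, 250 bases before to 50 after the gene start) held 6 of the 10 members, the 5 Serpina1 copies and Serpina3n. The Serpina1 promoters were 91.7% to 98.4% identical over their aligned bases, and all 5 contained the same run of 59 bases, which was in no other of the 32851 promoters. Serpina1b and Serpina1e are shown because theirs was the pair with 98.4% identity, over 248 aligned bases. The shared run starts further from the RefSeq gene start in Serpina1e than in Serpina1b, so their promoter windows are offset. Pairs with Serpina1e had 238 to 249 aligned bases, and pairs without it 288 to 298. The bases outside the alignment were not compared. The log2 fold changes of Serpina1b and Serpina1e between HFD and NC, described below, were -0.37 and -2.41. Whether the promoters bear on these was not tested. Capitals mark the shared run, and the windows are chr12:103738176-103738304 for Serpina1b and chr12:103956936-103957064 for Serpina1e, both on the minus strand.
Serpina1b: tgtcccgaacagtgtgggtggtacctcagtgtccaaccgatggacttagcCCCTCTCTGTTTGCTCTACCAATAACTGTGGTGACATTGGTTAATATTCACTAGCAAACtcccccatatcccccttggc
Serpina1e: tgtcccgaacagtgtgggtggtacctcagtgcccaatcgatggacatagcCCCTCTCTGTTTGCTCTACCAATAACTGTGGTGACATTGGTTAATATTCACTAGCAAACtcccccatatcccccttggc
Searched on both strands, the C/EBP motif TTGCNNAA was in the promoters of Serpina1a, Serpina1b, Serpina1d and Serpina1e and in 10.8% of all promoters of this length. The glucocorticoid receptor motif ACANNNTGT was in those of Serpina1a and Serpina3n and in 6.85% of all. The HNF1 motif GTTAATNAT (0.801% of all) and the STAT motif TTCNNNGAA (8.3% of all) were in 0 of the 6. Only exact matches were counted. The run shared by the Serpina1 copies holds GTTAATATT, which differs from the HNF1 motif at a single letter. How many other promoters hold such a near match was not counted. These matches are letters in a window and not binding sites.

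Fragments counted on genes ranged from 17163191 to 20493907 per mouse, and every pair of mice in a group differed by more than counting error. The library size used for the FPKM was 0.9325 to 1.0248 of that total in NC, 0.9983 to 1.1414 in HFD mice and 0.9718 to 1.0468 with SZ-A, so the deposited values hold a scaling between mice. At this depth Serpina3k had 96711 to 213213 fragments in a mouse, Serpina1e 4653 to 106661 and Serpina6 285 to 4599. Counting error was therefore small beside the spread between mice. Paired reads of 150 bases cannot always tell the copies apart. Of all 150-base windows of its transcripts, Serpina1c shared 50.5% with another gene of the cluster, Serpina1a 35.1%, Serpina1d 23.3%, Serpina1b 11.9% and Serpina1e 7.36%, against 0.262% in Serpina3k, 0.331% in Serpina3m and none in Serpina3n, Serpina6 and Serpina10. How fragments that fit several copies were counted is not given in the sources used here, so the values of single copies, Serpina1a and Serpina1c in particular, are uncertain and the sum over the copies is given as well.

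High-fat diet moved most of the family, and in both directions. In limma fits of the 6 HFD against the 6 NC mice, 7 of the 10 genes passed an adjusted p of 0.05 (Benjamini-Hochberg, over all 10216 genes) with a fold change over 1.2. The background was 20.2% of all genes tested. Serpina1a, Serpina1b, Serpina1d, Serpina1e and Serpina3k fell, Serpina6 and Serpina10 rose, and Serpina1c, Serpina3m and Serpina3n were not called. The values of the HFD and NC mice did not overlap for 4 of the 10, Serpina1a, Serpina1e, Serpina3k and Serpina6, against 10.5% of all genes. The median log2 fold change was -0.22 over the 10 members and -0.03 over all genes. Between SZ-A and HFD mice, 0 of the 10 passed in limma and 0 did with voom on the whole fragments, where the background was 0.147% of genes in limma. At an unadjusted p under 0.05 there were 6 of the 10 members and 1515 of all 10216 genes, and 9 of the 10 members had the higher mean log2 value with SZ-A. Their median log2 fold change was 0.34, against 0.03 over all genes, and groups that did not overlap were found for 0 of the 10 members and 1.28% of genes. Between SZ-A and NC mice 1 of the 10, Serpina10, was called, against 9.6% of genes, and 0 did not overlap, against 5.5%. The comparisons share their HFD or NC mice and are not independent of each other. Without NC6 the number of members called was again 7 between HFD and NC and 1 between SZ-A and NC.

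**Figure D1:**
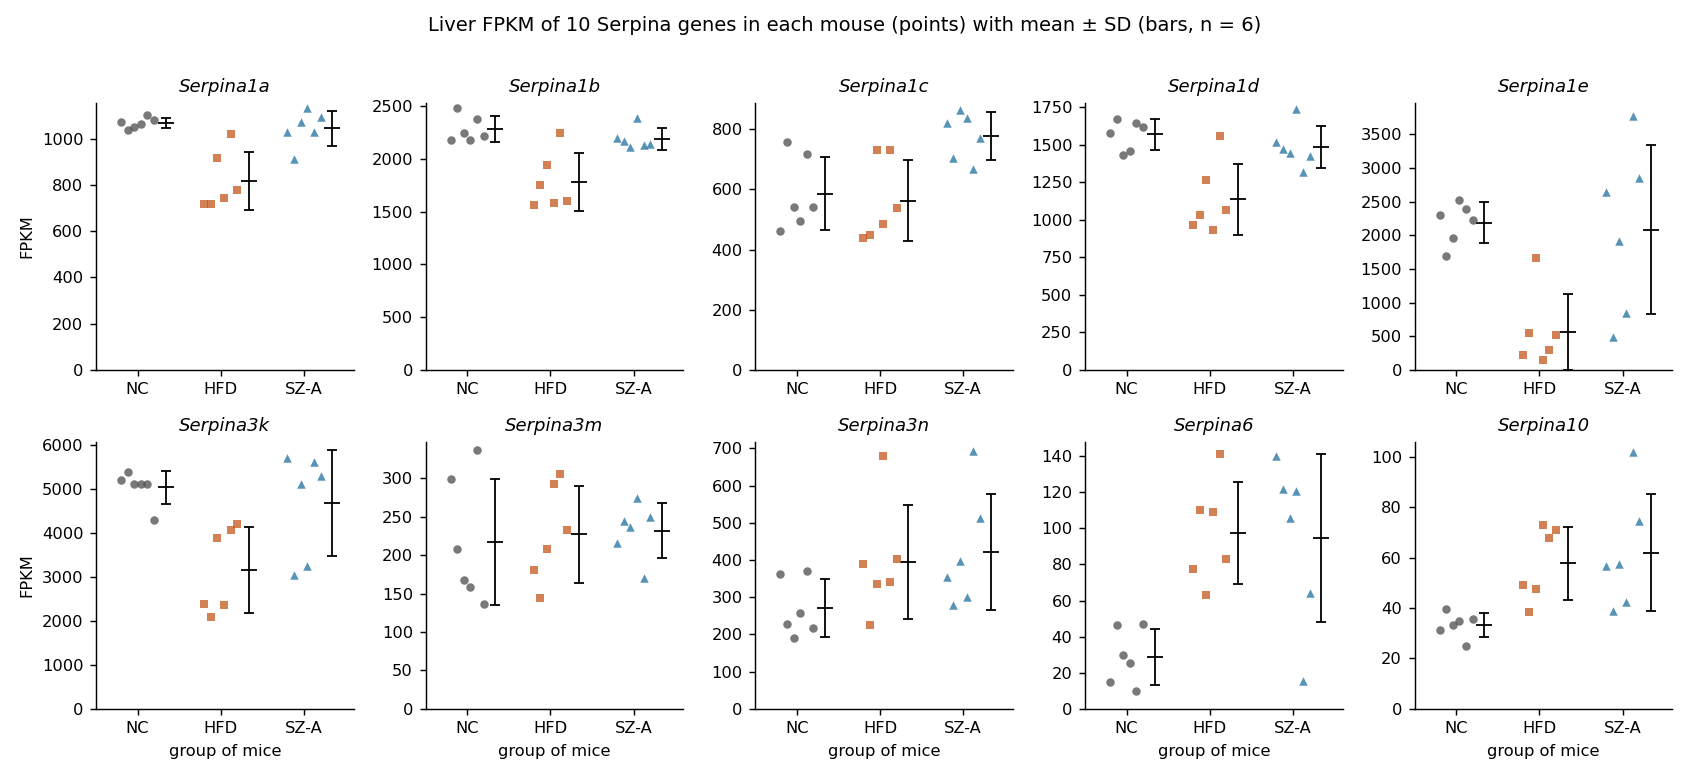
FPKM (vertical axes, from 0) of the 10 Serpina genes in each of the 18 mice (points) by group, with mean ± SD over 6 mice (black bars). In HFD mice Serpina1e lies at 145 to 1665 FPKM and Serpina3k at 2094 to 4204, below all NC mice, whereas Serpina6 lies at 62.9 to 141, above all NC mice.

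Serpina3k had the highest mean of the 10 genes in every group and Serpina6 or Serpina10 the lowest. The places of the Serpina1 copies, Serpina1a and Serpina1c in particular, are uncertain. How fragments that fit several copies were counted is not given. In NC the order was Serpina3k with 5041 ± 378 FPKM (SD, n = 6), Serpina1b with 2282 ± 123, Serpina1e with 2184 ± 307, Serpina1d with 1567 ± 101, Serpina1a with 1069 ± 23.5, Serpina1c with 586 ± 122, Serpina3n with 271 ± 76.8, Serpina3m with 217 ± 82.1, Serpina10 with 33.3 ± 4.96 and Serpina6 with 28.9 ± 15.5. The ranges of neighbours in this order overlapped for Serpina1b and Serpina1e, for Serpina3n and Serpina3m and for Serpina10 and Serpina6, and for no other pair. In HFD mice Serpina1e moved from the third place to the fifth, with a mean of 566 FPKM next to 562 of Serpina1c, and Serpina6 moved above Serpina10 in 6 of 6 mice. In SZ-A mice the order of the first 8 genes was that of NC, and Serpina6 was above Serpina10 in 4 of 6 mice.

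Among the α1-antitrypsin copies, Serpina1e changed most with diet. It was 2304, 1690, 1959, 2524, 2394 and 2233 FPKM in NC1 to NC6 and 224, 543, 1665, 145, 294 and 524 in HFD1 to HFD6. Every HFD mouse was below every NC mouse, but HFD3 was close to the lowest NC mouse, and the spread among HFD mice was 11.5-fold from lowest to highest against 1.49-fold in NC. This was a log2 fold change of -2.41 (SE 0.45, adjusted p = 0.00246 by limma), a 5.33-fold lower level, and without HFD3 it was -2.82. With SZ-A the values were 2643, 492, 1911, 839, 3773 and 2843 FPKM. SZ-A2 and SZ-A4 were within the range of the HFD mice and the other 4 were above it, with 3 of them, SZ-A1, SZ-A5 and SZ-A6, above every NC mouse. Against HFD the log2 fold change was 2.05 (95% interval 0.73 to 3.36), and it did not pass over all genes (adjusted p = 0.155). Against NC it was -0.37, with an interval of -1.27 to 0.54 and an adjusted p of 0.639.

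Serpina1a was the steadiest gene of the family in NC. Its values there were 1039 (lowest), 1069 (median) and 1104 (highest) FPKM, against 717, 761 and 1023 in HFD mice. The groups did not overlap, although HFD5, at 1023, was close to the lowest NC mouse. They differed by a log2 fold change of -0.40 (SE 0.10, adjusted p = 0.0116 by limma). In SZ-A mice Serpina1a was at 913, 1052 and 1133 FPKM, above the HFD mean in 6 of 6 mice, but SZ-A2 was below HFD3 and HFD5. Against HFD this was a log2 fold change of 0.37 (interval 0.15 to 0.59, adjusted p = 0.135), and against NC -0.03 (interval -0.19 to 0.12).

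Serpina1b and Serpina1d followed the same order of groups with smaller folds than Serpina1e. Serpina1b was at 2178, 2233 and 2482 FPKM (lowest, median, highest) in NC, 1568, 1675 and 2249 in HFD mice and 2112, 2157 and 2391 with SZ-A. HFD5, at the top of its group, was alone in reaching the NC range. Between HFD and NC its log2 fold change was -0.37 (SE 0.10, adjusted p = 0.0237 by limma), and the call was lost without NC2, HFD1, HFD4 or HFD6, with adjusted p-values from 0.0506 to 0.0556. Serpina1d was at 1432, 1599 and 1673 FPKM in NC, 933, 1047 and 1554 in HFD mice and 1316, 1459 and 1734 with SZ-A. Again HFD5 was the single HFD mouse inside the NC range, and the log2 fold change was -0.49 (SE 0.12, adjusted p = 0.0138). Between SZ-A and HFD the log2 fold changes were 0.31 (interval 0.10 to 0.52, adjusted p = 0.175) for Serpina1b and 0.41 (interval 0.14 to 0.68, adjusted p = 0.161) for Serpina1d.

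Serpina1c was the copy that was called in no comparison. Its level was 462, 541 and 759 FPKM (lowest, median, highest) in NC, 440, 510 and 732 in HFD mice and 667, 796 and 865 with SZ-A. NC and HFD overlapped almost entirely, and the log2 fold change between them was -0.07 (interval -0.43 to 0.29, adjusted p = 0.804 by limma). SZ-A mice were above the mean of either other group in 6 of 6, with a log2 fold change of 0.50 against HFD (interval 0.19 to 0.80, adjusted p = 0.144) and of 0.43 against NC (interval 0.14 to 0.71, adjusted p = 0.0563). The difference from NC passed without NC2, NC5 or SZ-A5 (adjusted p = 0.0263, 0.0275 and 0.0411).

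Summed over the 5 copies, Serpina1 reached 7689 ± 327 FPKM in NC, 4862 ± 1084 in HFD mice and 7582 ± 1137 with SZ-A (SD, n = 6). The HFD sums ranged from 3884 to 6529 and lay below all NC sums, which began at 7224. Without Serpina1e the sum was 5505 ± 321 in NC, 4296 ± 749 in HFD mice and 5499 ± 331 with SZ-A. Serpina1e made up 28.4 ± 3.58% of the 5-copy sum in NC, 10.6 ± 8.09% in HFD mice and 25.9 ± 13.2% with SZ-A. Its share ran from 3.73% in HFD4 to 25.5% in HFD3, and in the SZ-A group from 8.56% in SZ-A2 to 42.3% in SZ-A5. Serpina1b took the largest share in HFD mice, 37.3 ± 4.04% against 29.7 ± 1.67% in NC, and Serpina1c had 11.6 ± 0.932% against 7.61 ± 1.46%.

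**Figure D2:**
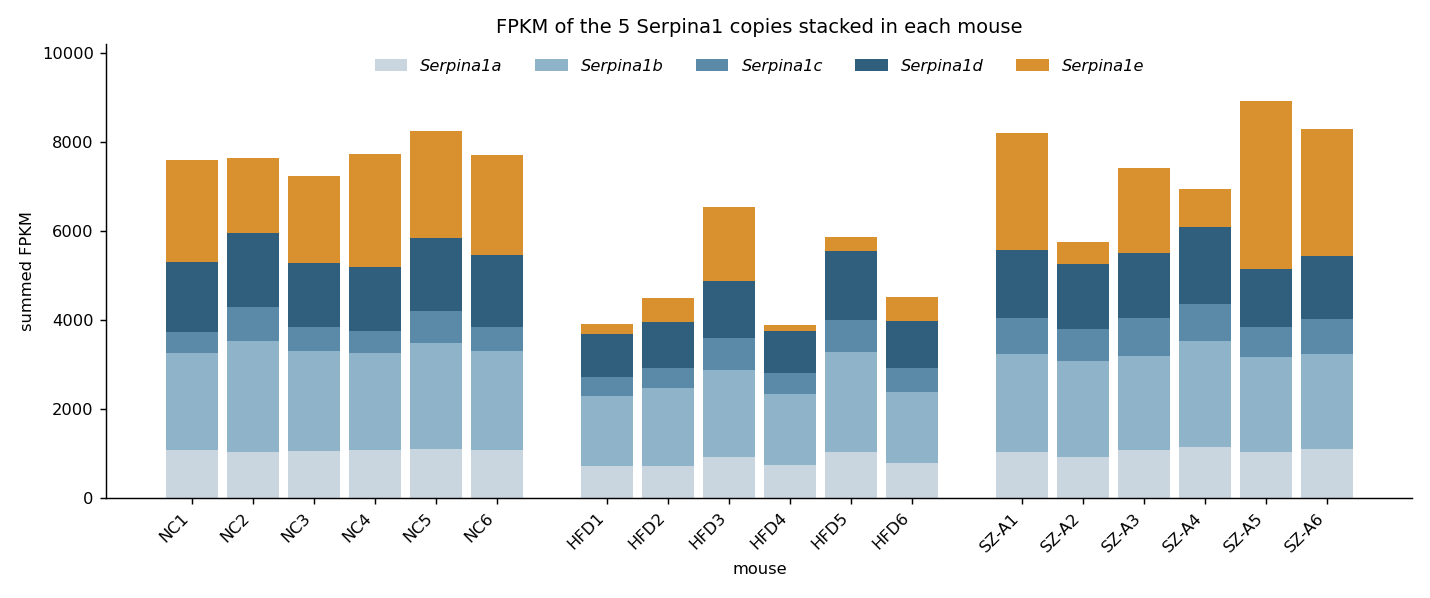
FPKM of the 5 Serpina1 copies stacked for each of the 18 mice (vertical axis, summed FPKM from 0). Serpina1e (top segment) is 3.73% to 25.5% of the bar in HFD mice and 22.1% to 32.7% in NC mice, and is small in SZ-A2 and SZ-A4 among the SZ-A mice.

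Serpina3k encodes contrapsin, an inhibitor of trypsin-like enzymes that is abundant in mouse plasma. It was 5204, 5396, 5103, 5117, 5123 and 4303 FPKM in NC1 to NC6, and 2390, 2094, 3881, 2364, 4062 and 4204 in HFD1 to HFD6. The HFD mice fell into 3 low and 3 higher values, all below the NC mice, of which NC6 was the lowest. Its log2 fold change was -0.73 (SE 0.18, adjusted p = 0.0135 by limma), a 1.66-fold lower level. Tested with no filter on low values, Serpina3k (adjusted p = 0.138 by limma), Serpina1d (0.0642) and Serpina1b (0.164) did not pass. In SZ-A1 to SZ-A6 it was 5713, 3048, 5107, 3244, 5622 and 5303 FPKM. SZ-A2 and SZ-A4, the same mice that were low in Serpina1e, were inside the HFD range and the others above it. The SZ-A mice were also compared over expressed genes of all kinds, the serpins included. SZ-A2 and SZ-A4 differed from each other by a chi-square per degree of freedom of 24.6, where counting error alone gives about 1. From the other SZ-A mice they differed by 50.1 to 136. Those others differed among themselves by 18.6 to 84.3, so they were not a uniform group. Against HFD the log2 fold change of Serpina3k was 0.58 (interval 0.07 to 1.08, adjusted p = 0.267) and against NC -0.15 (interval -0.52 to 0.21).

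The other members of this branch were called in no comparison. Serpina3n, an acute phase gene whose product inhibits granzyme B and elastase, was at 191, 243 and 370 FPKM (lowest, median, highest) in NC, 225, 364 and 680 in HFD mice and 279, 376 and 692 with SZ-A. All groups overlapped, with single high values in HFD4 and SZ-A5. Its log2 fold change was 0.51 between HFD and NC (SE 0.24, adjusted p = 0.145 by limma) and 0.61 between SZ-A and NC (interval 0.11 to 1.12, adjusted p = 0.116). Serpina3m was at 136, 187 and 337 FPKM in NC, 144, 221 and 306 in HFD mice and 170, 241 and 274 with SZ-A. Its log2 fold changes were 0.10 (interval -0.43 to 0.62) between HFD and NC, 0.06 (interval -0.32 to 0.45) between SZ-A and HFD and 0.16 (interval -0.30 to 0.62) between SZ-A and NC. Because Serpina3k made up 91.2 ± 2.33% of the FPKM of these 3 genes in NC and 82.9 ± 6.39% in HFD mice, their sum followed it, with 5530 ± 461 FPKM in NC, 3789 ± 1001 in HFD mice and 5327 ± 1291 with SZ-A.

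Serpina6, the carrier of corticosterone in plasma, rose with high-fat diet. It was 14.8, 46.4, 29.9, 25.3, 9.99 and 46.9 FPKM in NC1 to NC6 and 77.3, 110, 62.9, 109, 141 and 83.1 in HFD1 to HFD6. The groups did not overlap, and NC2 and NC6 were the highest NC mice. Serpina6 had a log2 fold change of 1.90 (SE 0.35, adjusted p = 0.00246 by limma), a 3.74-fold higher level, and without NC6 it was 2.08. The SZ-A mice had 140, 122, 106, 121, 15.5 and 64.1 FPKM. All but SZ-A5 were above the NC range, and SZ-A5 was inside it. Against HFD the log2 fold change was -0.27, with an interval of -1.27 to 0.72 (adjusted p = 0.826). Against NC it was 1.63 (interval 0.48 to 2.78, adjusted p = 0.072), and without SZ-A5 it was 2.09 and passed (adjusted p = 0.00486). Of 7 glucocorticoid genes, all tested, 1 was called between HFD and NC, where 20.2% of all genes tested were called. It was Tsc22d3, a gene that glucocorticoids induce, which had 39.9 ± 9.97 FPKM in NC and 23.6 ± 7.74 in HFD mice (log2 fold change -0.77, adjusted p = 0.0327 by limma). The other genes on this list, further induced genes among them, were not called. The receptor gene Nr3c1 had 9.58 ± 1.94 FPKM in NC and 12.1 ± 1.23 in HFD mice (adjusted p = 0.0815). None of the 7 was called with SZ-A against HFD or against NC in limma, where 1 and 0 had an unadjusted p under 0.05.

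Serpina10, whose product inhibits factor Xa with protein Z as its cofactor and also factor XIa, rose as well. It was at 25.0, 34.1 and 39.7 FPKM (lowest, median, highest) in NC and at 38.5, 58.4 and 73.0 in HFD mice. HFD2 alone was inside the NC range. Its log2 fold change was 0.77 (SE 0.16, adjusted p = 0.00554 by limma). In SZ-A mice it was at 38.7, 57.2 and 102 FPKM, above the NC mean in 6 of 6, with a log2 fold change of 0.83 against NC (SE 0.21, adjusted p = 0.0236). Without SZ-A6 the latter was 0.76 and did not pass (adjusted p = 0.0578). SZ-A and HFD mice overlapped widely, and their difference was 0.06 (interval -0.44 to 0.57).

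Of 10 target proteases and the cofactor of these serpins, 4 had a mean of at least 1 FPKM, all made in the liver. The proteases of white blood cells, among them Elane, Prtn3 and Ctsg, were under that mean and were not tested. Of these, Prtn3 (proteinase 3) had 0.115 ± 0.0965 FPKM in NC, 1.33 ± 1.06 in HFD mice, above all NC mice, and 1.38 ± 1.02 with SZ-A. Among the genes tested, 10.5% did not overlap between HFD and NC. The others on the list did not share this pattern. In NC and HFD mice Elane had 0.219 ± 0.16 and 0.318 ± 0.218 FPKM, and Gzmb 0.163 ± 0.152 and 0.249 ± 0.194, with overlap. Cma1 had the lower mean in HFD mice (0.087 ± 0.189 and 0.00769 ± 0.0188), and Ctsg was at 0 in both groups. The gene of factor XI, F11, was higher with SZ-A, at 21.3 ± 4.12 FPKM, than in NC, at 13.2 ± 2.27 (log2 fold change 0.67, adjusted p = 0.0109 by limma), and against the HFD mice, at 12.5 ± 2.07, its difference was 0.75 (adjusted p = 0.0583). F10 had 127 ± 15.4 FPKM in NC, 115 ± 15.8 in HFD mice and 150 ± 13.6 with SZ-A, and Proz, the gene of protein Z, had 48.7 ± 15.2, 63.0 ± 5.07 and 68.5 ± 6.76, without a call in any comparison. Of the 4, 0 were called between HFD and NC, where 0 had an unadjusted p under 0.05, and 0 between SZ-A and HFD, where 3 did. Over all genes tested, 20.2% were called between HFD and NC, 0.147% between SZ-A and HFD and 9.6% between SZ-A and NC.

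**Figure D3:**
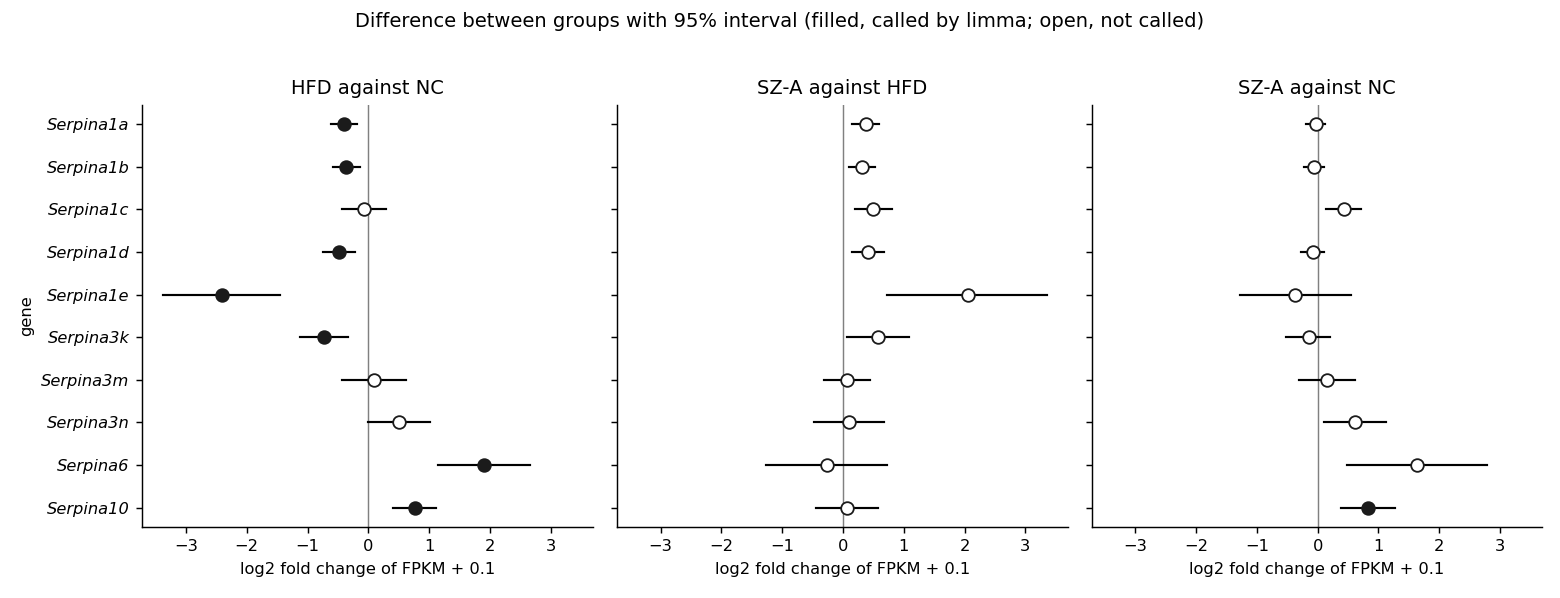
Log2 fold change of FPKM + 0.1 (horizontal axis) for the 10 genes in the 3 comparisons, with 95% intervals (lines). Filled circles mark calls by limma, 7 for HFD against NC, 0 for SZ-A against HFD and 1 for SZ-A against NC, and the widest intervals are those of Serpina1e and Serpina6.

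Individual mice stood out across several members. HFD5 was the highest HFD mouse in 5 of the 10 genes, Serpina1a, Serpina1b, Serpina1d, Serpina3m and Serpina6, yet had 294 FPKM of Serpina1e. SZ-A2 was the lowest SZ-A mouse in 5 genes, Serpina1a, Serpina1e, Serpina3k, Serpina3n and Serpina10. SZ-A5 was the highest in 3, Serpina1e, Serpina3n and Serpina10, and the lowest in 4, Serpina1c, Serpina1d, Serpina3m and Serpina6. The coefficient of variation in NC ran from 2.20% for Serpina1a to 53.7% for Serpina6 and was under 10% for 4 of the 10 genes, Serpina1a, Serpina1b, Serpina1d and Serpina3k. In HFD mice it ran from 15.2% for Serpina1b to 99.3% for Serpina1e. It was higher in NC than in HFD mice for Serpina3m (37.7% and 27.8%) and Serpina6 (53.7% and 29.1%) and lower for the other 8.

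The scaling of the mice touched the small changes. When the FPKM of each mouse were rescaled to the same sum, the median log2 fold change of all genes between HFD and NC moved from -0.03 to 0.157, and the calls, 1092 higher and 970 lower in the fits above, became 2095 higher and 333 lower. Serpina1e, Serpina3k and Serpina1d stayed called and lower, and Serpina6 and Serpina10 called and higher. Serpina1a with -0.21 (adjusted p = 0.0806 by limma) and Serpina1b with -0.17 (adjusted p = 0.15) no longer passed, Serpina1c turned to 0.12 without a call, and Serpina3n passed with 0.70 (adjusted p = 0.0388). Between SZ-A and HFD the same rescaling moved the median of all genes to -0.151 and the 8 higher and 7 lower calls to 10 higher and 206 lower, and no member was called.

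Of 16 other clade A serpins, all in the table, 6 had a mean of at least 1 FPKM, and 2 of the 6 rose between HFD and NC. Over all genes tested, 20.2% were called between HFD and NC and 9.6% between SZ-A and NC. Serpina7 encodes thyroxine-binding globulin, a hormone carrier like Serpina6. It was at 2.44, 6.35, 7.34, 1.59, 1.69 and 24.9 FPKM in NC1 to NC6, and at 23.7, 44.4 and 60.7 (lowest, median, highest) in HFD mice. NC6 was the single NC mouse that overlapped the HFD group. The log2 fold change was 3.12 (SE 0.56, adjusted p = 0.00208 by limma), and 2.64 between SZ-A and NC (adjusted p = 0.00993), with 28.7 ± 4.50 FPKM in SZ-A mice. Without NC6 these were 3.61 (adjusted p = 0.000239) and 3.13 (adjusted p = 0.00106). Serpina3g, an inhibitor of cathepsins in white blood cells, had 3.69 ± 1.22 FPKM in NC and rose to 5.78 ± 1.05 (log2 fold change 0.67, adjusted p = 0.0224), and NC6, with 5.97, was again the highest NC mouse. Without NC6 its log2 fold change was 0.81 (adjusted p = 0.00284). Serpina11 had 17.1 ± 1.80 FPKM in NC, 15.4 ± 1.87 in HFD mice and 24.9 ± 6.93 with SZ-A, and SZ-A2 and SZ-A4, at 16.0 and 16.7, were apart from the other SZ-A mice at 26.0 to 32.5. It passed in no comparison, and its difference between SZ-A and HFD was 0.64 (adjusted p = 0.129). Serpina12, the adipokine vaspin, had 7.83 ± 3.93, 10.4 ± 5.86 and 16.0 ± 4.38 FPKM in NC, HFD and SZ-A mice, with a difference of 1.17 between SZ-A and NC (adjusted p = 0.057). Agt, the gene of angiotensinogen, had 398 ± 82.5, 357 ± 41.7 and 357 ± 58.8 FPKM, and Serpina3f 1.36 ± 0.526, 1.80 ± 0.144 and 2.0 ± 0.857, without a call. Without NC6, Serpina3f passed between HFD and NC (0.61, adjusted p = 0.0309 by limma) and Serpina12 between SZ-A and NC (1.33, adjusted p = 0.0391). Of the 6, 0 passed between SZ-A and HFD in limma, 3 had an unadjusted p under 0.05, and the other 10 clade A serpins had a mean under 1 FPKM.

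**Figure D4:**
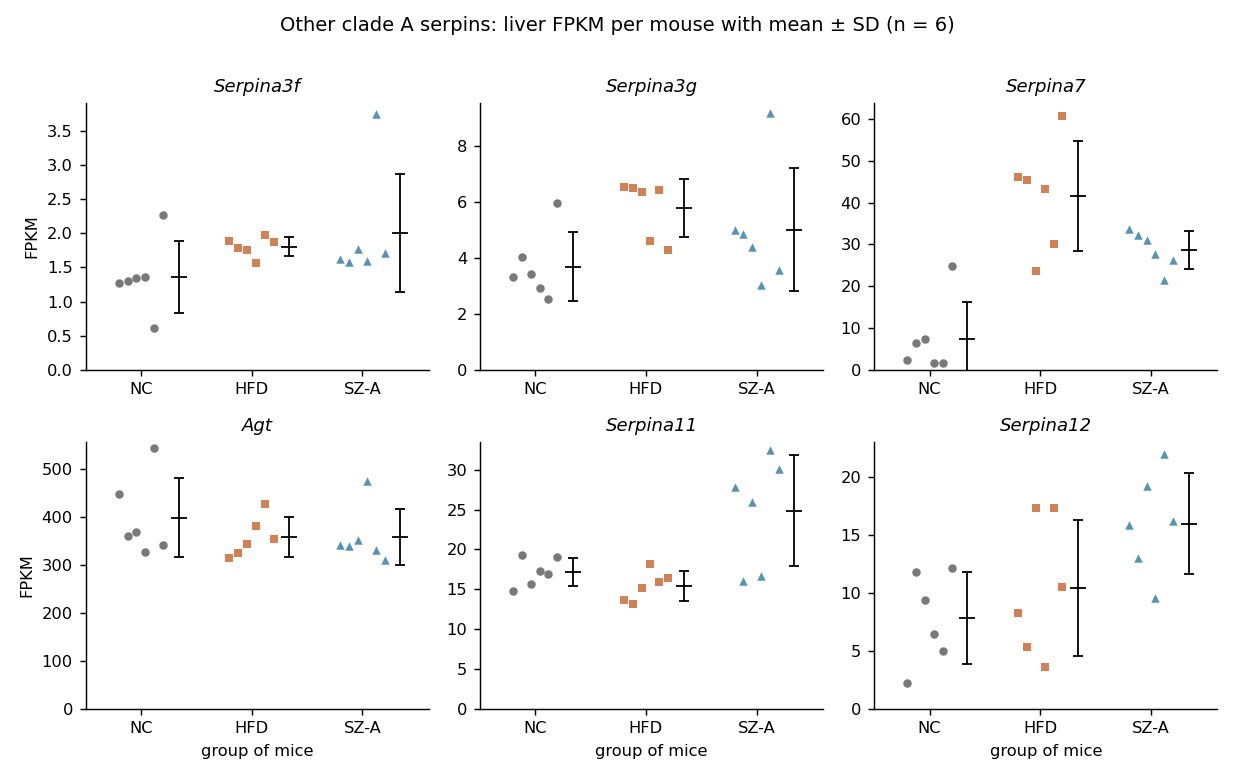
FPKM (vertical axes, from 0) of the 6 other clade A serpins with a mean of at least 1 FPKM in each mouse (points), with mean ± SD over 6 mice (black bars, cut at 0 for Serpina7 in NC). NC6, at 24.9 FPKM of Serpina7, lies among the HFD mice, and SZ-A2 and SZ-A4 lie low in Serpina11.

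Of 12 serpins of other clades tested from a list of 14, 2 were called higher and 2 lower between HFD and NC. The background was 20.2% of all genes tested, in both directions, and 9.6% between SZ-A and NC. Serpinc1 (antithrombin) fell with diet, with 202 ± 12.9 FPKM in NC against 166 ± 16.6 (log2 fold change -0.29, adjusted p = 0.0219 by limma) and so did Serpinf1 (pigment epithelium-derived factor), with 234 ± 20.5 against 176 ± 22.7 (log2 fold change -0.41, adjusted p = 0.00835). Serpinh1, a collagen chaperone, rose from 3.72 ± 1.35 to 11.4 ± 2.51 (log2 fold change 1.64, adjusted p = 0.00048). Serpinh1 was also called between SZ-A and NC, at 10.1 ± 4.99 FPKM in SZ-A mice (log2 fold change 1.37, adjusted p = 0.0164). Without NC6, 2 of the 12 in place of 1 were called between SZ-A and NC. With SZ-A against HFD, 0 of the 12 passed in limma and 4 had an unadjusted p under 0.05.

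Genes of the path that folds, exports and clears these proteins were followed on further lists. For these lists the background was 20.2% of all genes tested called between HFD and NC and 9.6% between SZ-A and NC. Of 13 genes for export from the endoplasmic reticulum and quality control, 3 rose between HFD and NC, a share near that background. Edem1 went from 23.0 ± 3.42 to 33.1 ± 7.76 FPKM (adjusted p = 0.0281 by limma), Edem2 from 9.20 ± 1.43 to 11.3 ± 0.689 (adjusted p = 0.0482) and Man1b1 from 6.63 ± 1.05 to 8.54 ± 0.490 (adjusted p = 0.0235). Edem1 and Edem2 were also higher in SZ-A than in NC mice (adjusted p = 0.0236 and 0.0377). Without NC6, Edem2 passed in neither comparison (adjusted p = 0.0793 for HFD and 0.0628 for SZ-A against NC). The median of this list was 0.37 between HFD and NC, against -0.03 over all genes. Of 15 transcription factors and interleukin 6 receptor genes, 1 rose between HFD and NC, Stat5a, from 1.62 ± 0.290 to 2.72 ± 0.730 FPKM (adjusted p = 0.0199), and 1 between SZ-A and NC, Cebpb, from 108 ± 20.3 to 160 ± 33.0 (adjusted p = 0.0301, and 0.0557 without NC6). Of 5 clearance receptors, 4 were tested. Lrp1, which takes up complexes of serpins with proteases, rose from 46.0 ± 11.1 to 63.8 ± 6.39 FPKM between NC and HFD mice (adjusted p = 0.0338), and Asgr2, a subunit of the asialoglycoprotein receptor, was called between SZ-A and NC, from 96.0 ± 11.2 to 131 ± 14.4 (adjusted p = 0.0155). On these 3 lists 0 genes passed between SZ-A and HFD in limma, and 1, 0 and 1 had an unadjusted p under 0.05.

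Markers of hepatocytes and other cells were followed on 11 lists. The background was again 20.2% of all genes tested called between HFD and NC and 9.6% between SZ-A and NC. On each list the summed FPKM of NC and HFD mice overlapped. The summed FPKM of 9 hepatocyte markers was 54427 to 77258 in NC, 39916 to 62528 in HFD mice and 45229 to 73887 with SZ-A, and 3 of the 9 fell between HFD and NC. In bulk liver, fewer cells of a type and less RNA per cell cannot be told apart. The 6 Kupffer cell markers summed to 81.7 to 172 FPKM in NC, 122 to 270 in HFD mice and 146 to 193 with SZ-A, with 2 of 6 called higher in HFD than in NC. The 6 stellate cell markers summed to 34.5 to 49.4, 39.2 to 87.1 and 36.0 to 52.8, with 4 of 6 called higher. Of 5 neutrophil markers, which summed to 1.12 to 5.95, 5.56 to 18.6 and 4.35 to 16.6, 2 were tested and both were called higher, but Ly6g was at 0 in all but 2 HFD mice and Mpo in all but 2 HFD mice and 1 SZ-A mouse. Csf3r, also not tested, was at 0.927 to 1.78 FPKM in HFD mice, above all NC mice at 0.347 to 0.882. Among the genes tested, 10.5% did not overlap between HFD and NC. Endothelial markers (38.8 to 47.7, 43.2 to 56.6 and 46.1 to 49.7 FPKM) had 1 of 5 called higher. The 2 adipocyte markers tested went opposite ways (list sums 30.7 to 116, 17.0 to 56.1 and 6.54 to 46.8). Fabp4 was called higher (log2 fold change 1.02, adjusted p = 0.00526 by limma). Cidec, which made up most of these sums, was lower without a call (-0.76, adjusted p = 0.128). Of 2 cholangiocyte (10.9 to 39.0, 21.8 to 44.3 and 15.1 to 30.1), 3 red blood cell (173 to 351, 137 to 284 and 214 to 422) and 1 tested pancreas acinar marker (list sums 3.17 to 5.07, 4.45 to 8.94 and 9.16 to 10.6) none was called between HFD and NC. The acinar marker Pnlip was at 0 in every mouse. Between SZ-A and NC, calls were made for 2 hepatocyte markers (lower), 1 stellate (higher), 2 neutrophil (higher), 1 cholangiocyte (lower), 1 acinar (higher) and 1 adipocyte marker (lower), and between SZ-A and HFD for none in limma, with 0 to 3 of a list at an unadjusted p under 0.05. Without NC6 the calls between HFD and NC were 0 of 5 for endothelial and 1 of 3 for red blood cell markers, and those between SZ-A and NC 2 of 6 for Kupffer cell and 1 of 2 for neutrophil markers, with the other counts as given. T cell and B cell markers summed to at most 2.07 FPKM in any mouse and none was tested. The part of these cells in the changes of the Serpina genes was not tested.

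For 9 of the members, the tested genes outside the family with the most similar pattern were found by the root mean square difference of log2 values about each gene's mean over the 18 mice. For Serpina1b these were Serpinc1 (0.09) and 1300017J02Rik (0.10), for Serpina1d Gm16536 and Serpinf1 (0.13 each) and for Serpina1a 1300017J02Rik (0.11) and Dnajc25 (0.12). Serpina3n was nearest to Hp (0.15), the gene of haptoglobin, and Hpx (0.24), that of hemopexin. Serpina3k was nearest to Mup3 (0.25), a major urinary protein, and Grtp1 (0.28). The Mup genes are near-identical copies, so values of single ones are uncertain. The distances of Serpina1e to Cadm4 (0.63) and Mup11 (0.69) and of Serpina6 to Inmt (0.41) and Ces1g (0.50) were larger, as was their own spread about the mean, 1.39 and 1.17. Serpina1c was nearest to Prdx4 (0.19) and C8g (0.20), and Serpina3m to Slc17a1 (0.23) and Gm19950 (0.25). The points are 18 mice of 3 groups, so the likeness includes the group differences.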

How the data were processed

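Poly-A RNA of 18 mouse livers was sequenced as paired-end reads. Per the labels and methods, the authors aligned reads to mm10 with HISAT2 2.0.5, and featureCounts 1.5.0-p3 is named in the submitters' processing notes. The authors deposited FPKM for 54532 genes, which are normalized values and not counts. FPKM times gene length gave whole fragments for 100% of values (tolerance 0.05), which gave the depth and were used with voom. The deposited unit is normalized, so the main test was not a count model, and limma 3.58.1 (R 4.3.3, lmFit and eBayes with trend) was used on log2(FPKM + 0.1), which understates changes of low genes. Each pair of groups had its own fit, over 10216 genes whose FPKM averaged 1 or more, and a call needed a p below 0.05 after Benjamini-Hochberg adjustment together with a fold of more than 1.2. The test was checked on simulated data. No column of values was left out. Samples were grouped by title.

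The members and the 7 pathway and 11 cell marker lists were chosen with earlier results of these data known. The lists are other clade A serpins, serpins of other clades, target proteases and cofactor, glucocorticoid genes, endoplasmic reticulum export and quality control, transcription factors and interleukin 6 receptor genes, and clearance receptors, and markers of hepatocytes, Kupffer, stellate, endothelial, cholangiocyte, neutrophil, pancreas acinar, adipocyte, red blood, T and B cells. Named were all members, other clade A serpins with a mean FPKM of at least 1, list genes called in a comparison, and the 2 nearest genes of each member, except for a few genes that are not reported here. Elane, Prtn3, Ctsg, Gzmb, Cma1, F10, Proz, Nr3c1, Ly6g, Mpo and Csf3r were picked outside it with their values in view, as were the sequences shown. 1 hepatocyte marker, Tf, was not found by its symbol. Sequences come from RefSeq (GRCm38.p6) and GENCODE M21. Gene lengths in the table equalled the exonic bases of GENCODE M21 for all 10 members. Promoters of Serpina3k, Serpina3m, Serpina6 and Serpina10 and the proteins were not analysed here. The alternatives tried were pseudocounts of 1 and 0.01, no filter or a mean FPKM of at least 5, other scalings, all mice in one fit, eBayes without trend or robust, voom, a replicate block, no fold threshold and each mouse left out. Labels do not say whether mice shared cages or litters. Python 3.11.15, numpy 2.4.6, pandas 2.3.3, scipy 1.17.1, Biopython 1.88 and matplotlib 3.10.9 were used.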

Additional observations from a re-analysis of the deposited data

Results flagged for a closer look

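In 3 of the 30 groups of 6 mice, 10 genes in 3 groups each, the highest or lowest mouse lay further from the others than Dixon's 95% limit allows. Chance flags about 1 in 20 groups. Serpina1e was 1665 FPKM in HFD3, where the next HFD mouse had 543. Serpina3k was 4303 FPKM in NC6, the mouse whose diet label says high-fat diet, and the next NC mouse had 5103. Serpina1b was 2391 FPKM in SZ-A4, and the next SZ-A mouse had 2196.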

How the results depend on the processing

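Of 230 values of single members per comparison over 23 alternatives, 217 kept direction and side of the threshold for HFD against NC, 220 for SZ-A against HFD and 217 for SZ-A against NC. Serpina1e, Serpina6 and Serpina10 were called between HFD and NC under every alternative. When low genes were kept, which raises the number tested, the members called fell to 4 for HFD against NC and 0 for SZ-A against NC, and all genes called to 0 for SZ-A against HFD and 564 for SZ-A against NC. Members called for SZ-A against NC were 2 with a mean FPKM of at least 5, with rescaled sums, with all 18 mice in one fit and with voom. All genes called with a mean FPKM of at least 5 were 1271 for HFD against NC and 26 for SZ-A against HFD, where rescaled sums gave 216, all 18 mice in one fit 35 and voom 32. The cause was not tested.

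With 1 mouse left out, the members called were 6 to 7 for HFD against NC, 0 in each fit for SZ-A against HFD and 0 to 3 for SZ-A against NC (2 without NC2 or NC5, 3 without SZ-A5, 0 without SZ-A6). All genes called were 1646 to 2145, 2 to 49 and 601 to 1179. The 2nd range was 2 without HFD4 or SZ-A6, 3 without HFD2 or SZ-A4, 4 without HFD1 or SZ-A3, 6 without SZ-A1, and 31, 45 and 49 without SZ-A5, HFD5 and SZ-A2 respectively, and the last was 601 without SZ-A3 and 629 without SZ-A6. Reversed values, none of them called, were 0.12 for Serpina1c between HFD and NC with rescaled sums, and, for SZ-A against HFD, -0.12 for Serpina3m, -0.0773 for Serpina3n and -0.12 for Serpina10. Leaving out 1 mouse reversed log2 fold changes close to 0. Between HFD and NC, Serpina1c ran from -0.15 to 0.0107 (without NC2) and Serpina3m from -0.0221 (without NC6) to 0.24. Between SZ-A and HFD, Serpina3m ran from -0.0587 (without HFD2) to 0.16, Serpina3n from -0.0561 (without SZ-A5, and -0.0454 without HFD2) to 0.27, Serpina6 from -0.44 to 0.19 (without SZ-A5) and Serpina10 from -0.0964 (without SZ-A5, with -0.0467 without HFD2 and -0.00668 without SZ-A6) to 0.18. Between SZ-A and NC, Serpina1a ran from -0.0583 to 0.00397 (without SZ-A2).

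Equal replicate numbers did not pair the mice (correlations of deviations from -0.12 to 0.29). With the replicate block the members called were 7, 0 and 1, and all genes called 1647, 0 and 922, for HFD against NC, SZ-A against HFD and SZ-A against NC. Under the block Serpina6 passed between SZ-A and NC (adjusted p = 0.0232 by limma) and Serpina10 did not (adjusted p = 0.0645). Depth limits little here, since the member with the fewest fragments, Serpina6, had at least 285 in each mouse.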
